A study of Mus musculus with 10 samples.

Results

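Glycolysis, the cytosolic pathway that splits glucose into pyruvate, was examined through 10 enzyme genes in microglia from mice given the CSF1R antagonist GW2580 or its vehicle. The genes were chosen by symbol, one for each of 9 steps from hexokinase to pyruvate kinase other than enolase, plus lactate dehydrogenase, and were matched by NCBI gene identifier to the counted genes. They are Hk2, Gpi1, Pfkl, Aldoa, Tpi1, Gapdh, Pgk1, Pgam1, Pkm and Ldha, 10 of the 46152 genes counted. All 10 passed the filter on low values, as did 28419 genes in all.

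The libraries came from male and female C57BL/6J mice, 8 to 12 weeks old in the study's methods. Mice were dosed by oral gavage for 8 days with GW2580, an inhibitor of the CSF1R kinase, at 80 mg/kg/d, or with a vehicle of Tween 80 and hydroxymethyl propyl-cellulose. Each group had 5 mice, 2 male and 3 female, and the labels name no further allele or agent for either group. Brains were digested with Accutase, cells were separated on Percoll and selected with magnetic CD11b beads, and RNA was amplified by SMART-Seq before sequencing. CD11b is also carried by monocytes and granulocytes, so the selection does not separate these from microglia, and each library is a bulk sample in which fewer cells of a type and less RNA per cell cannot be told apart. Levels below are CPM, the count of a gene normalised to the number of fragments assigned to genes in its library, after scaling by TMM, a factor per library that centres most genes.

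The first steps of glycolysis spend ATP to phosphorylate glucose and cleave it into triose phosphates, and the later steps oxidise these and return ATP. Lactate dehydrogenase then turns pyruvate into lactate and restores the NAD+ that glyceraldehyde-3-phosphate dehydrogenase needs. Microglia, the resident macrophages of the brain, are known to draw more on glycolysis when they are activated, and many of these enzyme genes are known targets of the hypoxia-inducible factor HIF-1.

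Fragments assigned to genes ranged from 12550418 to 26079343 per library. The microglia markers Tmem119, P2ry12, Cx3cr1 and 6 others were present in every library, while Trem2 did not pass the filter. Vehicle 5 stood apart. Its microglia markers summed to 10018 CPM, the lowest of the 10 libraries, against 19234 to 25792 in the other vehicle libraries and 14161 to 46192 with GW2580. The choroid plexus and ependymal markers that passed the filter, among them the transthyretin gene Ttr, summed to 28343 CPM in Vehicle 5 and to 176 to 3555 in the other 9 libraries. All 5 of them, all 7 erythroid markers and 5 of 8 astrocyte markers were highest in Vehicle 5. Oligodendrocyte markers were highest in Vehicle 2, with 17575 CPM in sum, and were 3887 in Vehicle 5 and 1736 in GW2580 4, sums carried by Mbp and Mobp, while 5 of the 7 that passed the filter (Sox10, Olig1, Olig2, Cnp and Mag) were highest in Vehicle 5. Fold changes of the 10 enzyme genes are therefore given with and without Vehicle 5, and counts over them also without Vehicle 2 and GW2580 4.

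The bases before the transcription start are shown for 3 of the genes, with the letters ACGTG marked, the core of the element that HIF-1 binds. Whether HIF-1 had a part in the levels of these genes was not tested. Of the 14 RefSeq start windows of the 10 genes (build GRCm38.p6, 250 bases before each start, both strands), 7 held ACGTG, which covers 6 of the 10 genes. The Aldoa windows with a match overlap and hold the same match, so the 7 windows are not all separate sites. Over all 32851 RefSeq start windows, 16.6% held these letters, and 18.5% of genes had at least 1 window with them. These shares were not matched to the 10 genes in base composition, expression or number of windows per gene. Windows of Hk2, Aldoa, Pgk1, Pgam1, Pkm and Ldha held a match, and those of Gpi1, Pfkl, Tpi1 and Gapdh did not. The longer CACGTG, which holds ACGTG on both strands and is also bound by MYC, was in 1 of the 14 windows and in 6.02% of all windows. A match is a description of letters in these windows and not a binding site. The genes shown are Hk2, whose values followed the other enzymes least, Pgk1, whose 2 matches lie close together, and Ldha, whose upstream window held CACGTG. Capitals mark ACGTG on either strand, 5′ to 3′ in the direction of transcription, for Hk2 at chr6:82774455-82774704 (minus strand), Pgk1 at chrX:106186850-106187099 (plus strand) and Ldha at chr7:46845554-46845803 (plus strand).
Hk2: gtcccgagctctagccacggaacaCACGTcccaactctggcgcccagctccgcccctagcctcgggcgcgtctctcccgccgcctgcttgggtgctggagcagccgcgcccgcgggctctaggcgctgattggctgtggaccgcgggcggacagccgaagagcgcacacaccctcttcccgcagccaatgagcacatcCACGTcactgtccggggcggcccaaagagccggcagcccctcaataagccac
Pgk1: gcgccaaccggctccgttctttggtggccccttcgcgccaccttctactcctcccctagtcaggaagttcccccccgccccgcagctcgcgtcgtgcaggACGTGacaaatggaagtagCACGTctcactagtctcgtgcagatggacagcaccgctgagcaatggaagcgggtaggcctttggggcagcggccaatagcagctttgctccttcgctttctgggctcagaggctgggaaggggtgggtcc
Ldha: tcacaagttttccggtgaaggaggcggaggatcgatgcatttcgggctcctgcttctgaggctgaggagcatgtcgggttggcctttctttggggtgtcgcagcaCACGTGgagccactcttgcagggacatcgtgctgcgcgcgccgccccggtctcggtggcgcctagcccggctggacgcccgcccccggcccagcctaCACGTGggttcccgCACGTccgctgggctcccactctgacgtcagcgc
The matches began 226 and 52 bases before the Hk2 start and 150 and 131 before the Pgk1 start. In the Ldha window CACGTG began 145 and 48 bases before the start, and a further single match began 34 before it.

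Per kb of exon, the levels of the enzyme genes spanned more than 2 orders of magnitude. Gapdh was highest, with a median of 513 CPM per kb over the 10 libraries (range 215 to 1425), and Hk2 lowest, with 3.52 (range 2.13 to 9.21). Between them the medians were 226 for Aldoa, 111 for Pkm, 82.1 for Tpi1, 65.8 for Gpi1, 48.2 for Ldha, 36.3 for Pgam1, 33.5 for Pgk1 and 24.7 for Pfkl. The order Gapdh over Aldoa over Pkm held in 10 of 10 libraries, as did Pfkl over Hk2 (exact sign-flip p = 0.00195 for each of these pairs, the smallest that 10 libraries can give, and 0.00586 after Benjamini-Hochberg adjustment over the 9 pairs of neighbours). Neighbours that were not separated were Pkm and Tpi1 (in this order in 6 of 10 libraries, exact p = 0.143, adjusted 0.16), Gpi1 and Ldha (7 of 10, exact p = 0.0938, adjusted 0.121), and Pgam1 and Pgk1 (9 of 10, with Vehicle 5 in the other order, exact p = 0.459, adjusted 0.459). The length used is that of all annotated exons together, from 1601 bases for Tpi1 to 7972 for Hk2, so genes with alternative exons are placed too low by this scale. Counts on pseudogenes named after an enzyme gene came to at most 11.1% of the counts of Pgam1 and 8.90% of those of Ldha in any library, and to at most 1.06% for Pgk1, 0.730% for Gapdh and 0.110% for Aldoa. Fragments that aligned to more than 1 place were not counted for any gene, so values of these 5 genes are uncertain, and the part they lost to such copies was not measured.

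None of the 10 enzyme genes was called as changed by GW2580. Calls required more than a 2-fold difference and an unadjusted p under 0.05 in edgeR's quasi-likelihood test, which called 4.01% of the 28419 genes tested as higher and 6.70% as lower with GW2580. None of the 10 had an unadjusted p under 0.05 in this test, in limma-voom or in the likelihood ratio test, while DESeq2 gave 2, Aldoa (unadjusted p of 0.0368) and Gapdh (0.0458), of which Aldoa also passed the fold threshold. No gene of the whole table passed a Benjamini-Hochberg adjusted p of 0.05 in the quasi-likelihood test, where 4186 had an unadjusted p under 0.05, or in limma-voom, against 177 in DESeq2 and 53 in the likelihood ratio test, with none of the 10 enzyme genes among them. Of the 10 log2 fold changes, 9 were below 0 and that of Hk2 was above it. The median of the 10 was -0.68, beside -0.03 over all genes tested. Scaling by library size alone moved the median of all genes to 0.23, and upper-quartile scaling moved it to 0.07. With these scalings 8 of the 10 were below 0, Pfkl having turned. Against the median gene, 9 of the 10 were lower in the main fit, 9 with library size alone and 8 with upper quartiles. The split of all calls into higher and lower went from 1141 and 1905 to 2123 and 875 with library size alone and to 1196 and 1230 with upper quartiles.

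This direction rested on 1 library. Without Vehicle 5, 5 of the 10 log2 fold changes were below 0 and their median was 0.03, beside 0.05 over all genes. Without Vehicle 2 and Vehicle 5 together, 2 were below 0 (median 0.19, all genes 0.07), and without GW2580 4 as well, a choice made after seeing the data, 1 was (median 0.26, all genes 0.0057). The count of enzyme genes called stayed at 0 in these fits, in which 6.18% of genes were called higher and 6.74% lower when Vehicle 5 alone was left out.

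**Figure D1:**
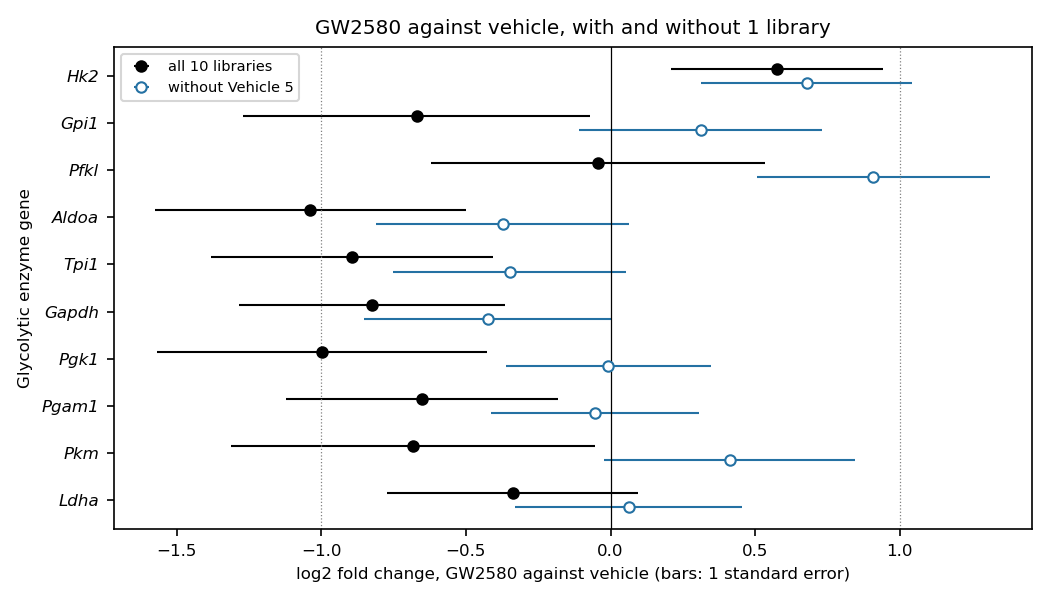
Log2 fold change of each enzyme gene, GW2580 against vehicle (x axis, bars are 1 standard error), with all 10 libraries (filled) and without Vehicle 5 (open). Without that library every value moves to the right, Pfkl from -0.04 to 0.91 and Hk2 least, from 0.57 to 0.68; dotted lines mark a fold change of 2.

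The genes of the ATP-consuming steps differed from each other in direction. Hk2 (NCBI gene 15277, chr6:82725025-82774454) encodes an inducible hexokinase, which phosphorylates glucose. It measured 25.05, 17.01, 30.0, 26.2 and 33.5 CPM in Vehicle 1 to 5 and 45.8, 22.7, 73.4, 31.2 and 23.1 CPM in GW2580 1 to 5. GW2580 1 and GW2580 3 lay above all vehicle libraries and the other 3 within their range. The means were 26.4 ± 6.20 and 39.3 ± 21.3 CPM (SD, n = 5 mice each), a log2 fold change of 0.57 ± 0.37 (SE; unadjusted p = 0.139, adjusted p = 0.465, exact permutation p = 0.27). Hk2 was the only one of the 10 whose highest library was not Vehicle 5, and its log2 fold change without Vehicle 5 was 0.68 ± 0.36 (adjusted p = 0.274). Its unadjusted p was 0.0377 when libraries were scaled by size alone.

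Gpi1 (NCBI gene 14751, chr7:34201327-34230336) encodes glucose-6-phosphate isomerase. Vehicle libraries 1 to 5 gave 227, 181, 107, 99.6 and 901 CPM and GW2580 libraries 1 to 5 gave 199, 314, 235, 115 and 89.3. Vehicle 5 was 5.87 times the mean of the other vehicle libraries, and the remaining values of both groups overlapped. The log2 fold change was -0.67 ± 0.60 (unadjusted p = 0.283, adjusted p = 0.606, exact permutation p = 0.73) with all libraries and 0.31 ± 0.42 without Vehicle 5 (adjusted p = 0.666), so the direction turned.

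Pfkl (NCBI gene 18641, chr10:77986947-78009807) encodes the liver-type subunit of phosphofructokinase, the committed step of the pathway. In Vehicle 1 to 4 it was tightly grouped, between 68.1 and 87.2 CPM, while Vehicle 5 had 429. GW2580 libraries 1 to 5 had 121, 114, 295, 115 and 63.4 CPM. Of these, 4 lay above Vehicle 1 to 4 and below Vehicle 5, and GW2580 5 lay below all vehicle libraries. Group means were 146 ± 158 and 142 ± 88.7 CPM (SD, n = 5 mice each), and the log2 fold change was -0.04 ± 0.58 (unadjusted p = 0.94, adjusted p = 0.979, exact permutation p = 0.659). Without Vehicle 5 it was 0.91 ± 0.40 with an unadjusted p of 0.04 (adjusted p = 0.207, exact permutation p = 0.0873 over the 126 choices of 4 of 9 libraries), a fold change under 2. Without Vehicle 5 and GW2580 5 together it was 0.98 (unadjusted p = 0.0127), in a fit where 4844 genes of the table had an adjusted p under 0.05 and none of the enzyme genes did.

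Aldoa (NCBI gene 11674, chr7:126795234-126800994) encodes aldolase A, which cleaves fructose-1,6-bisphosphate. It had 562, 1044, 532, 530.2 and 2622 CPM in Vehicle 1 to 5 and 341, 765, 801, 271 and 399 CPM in GW2580 1 to 5. GW2580 1, 4 and 5 lay below all vehicle libraries, and GW2580 2 and 3 lay between Vehicle 1 and Vehicle 2. This gave the most negative log2 fold change of the 10, -1.04 ± 0.54 (unadjusted p = 0.0734, adjusted p = 0.377, exact permutation p = 0.175), past the fold threshold but not the p threshold. Without Vehicle 5 it was -0.37 ± 0.44 (adjusted p = 0.616), and without GW2580 3 it was -1.25 (unadjusted p = 0.0471), which is a call.

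Tpi1 (NCBI gene 21991, chr6:124810586-124814158) encodes triosephosphate isomerase, which interconverts the 2 triose phosphates that aldolase releases. Its values were 140.0, 272, 123, 119 and 539 CPM in Vehicle 1 to 5, then 86.9, 188, 198, 70.8 and 99.1 CPM in GW2580 1 to 5. The same 3 GW2580 libraries as for Aldoa lay below all vehicle libraries. The log2 fold change was -0.89 ± 0.49 (unadjusted p = 0.0887, adjusted p = 0.397, exact permutation p = 0.198), and -0.35 ± 0.40 without Vehicle 5 (adjusted p = 0.61).

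In the later phase of the pathway, which returns ATP, the 4 genes Gapdh, Pgk1, Pgam1 and Pkm had log2 fold changes from -0.997 to -0.65. Gapdh (NCBI gene 14433, chr6:125161852-125166467) encodes glyceraldehyde-3-phosphate dehydrogenase, which is often used as a reference gene. It measured 961, 1390.3, 858, 1019 and 2751 CPM in Vehicle 1 to 5 and 549.6, 1224, 1097, 415 and 655 in GW2580 1 to 5. GW2580 1, 4 and 5 lay below all vehicle libraries, and GW2580 2 and 3 lay within the range of Vehicle 1 to 4. Means were 1396 ± 784 and 788 ± 353 CPM (SD, n = 5 mice each), with a log2 fold change of -0.82 ± 0.46 (unadjusted p = 0.0939, adjusted p = 0.405, exact permutation p = 0.103). Gapdh stayed below 0 in all 24 alternative fits, from -1.04 to -0.18, the only one of the 10 with a negative log2 fold change to do so, and without Vehicle 5 it was -0.42 ± 0.43 (adjusted p = 0.556). It varied across the 10 libraries from 415 to 2751 CPM after scaling.

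Pgk1 (NCBI gene 18655, chrX:106187100-106203699) encodes phosphoglycerate kinase, which makes ATP from 1,3-bisphosphoglycerate. Vehicle 1 to 5 had 66.8, 98.8, 48.0, 47.7 and 387 CPM, and GW2580 1 to 5 had 55.6, 88.7, 95.3, 40.2 and 45.1. Vehicle 5 was 5.92 times the mean of the other vehicle libraries, while Vehicle 1 to 4 and the GW2580 libraries covered nearly the same range. With all libraries the log2 fold change was -0.997 ± 0.57 (unadjusted p = 0.102, adjusted p = 0.418, exact permutation p = 0.476). Without Vehicle 5 it was -0.0081 ± 0.35 (adjusted p = 0.991).

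Pgam1 (NCBI gene 18648, chr19:41911871-41918665) encodes phosphoglycerate mutase. It had 73.8, 102, 58.1, 59.3 and 262 CPM in Vehicle 1 to 5 and 56.8, 97.3, 112, 42.0 and 45.4 CPM in GW2580 1 to 5. GW2580 1, 4 and 5 lay below all vehicle libraries and GW2580 3 lay above Vehicle 1 to 4, so the groups overlapped in both directions. The log2 fold change was -0.65 ± 0.47 (unadjusted p = 0.188, adjusted p = 0.52, exact permutation p = 0.381), and -0.05 ± 0.36 without Vehicle 5 (adjusted p = 0.937).

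Pkm (NCBI gene 18746, chr9:59656576-59679372) encodes the muscle-type pyruvate kinase, whose M1 and M2 forms come from alternative exons and were counted together. It was 465, 491, 287, 274 and 2531 CPM in Vehicle 1 to 5, and 486, 706, 784, 329.6 and 218 CPM in GW2580 1 to 5. Vehicle 5 was 6.67 times the mean of the other vehicle libraries, the largest such ratio among the 10 genes. The SD of the vehicle group was larger than its mean (809.8 ± 967 CPM, n = 5), against 505 ± 241 CPM with GW2580. The log2 fold change was -0.68 ± 0.63 (unadjusted p = 0.297, adjusted p = 0.619, exact permutation p = 0.778), and it turned to 0.41 ± 0.43 without Vehicle 5 (adjusted p = 0.575).

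Ldha (NCBI gene 16828, chr7:46842274-46855627) encodes the A subunit of lactate dehydrogenase. Vehicle 1 to 5 measured 328, 274, 241, 222 and 693 CPM and GW2580 1 to 5 measured 221, 422, 408, 135 and 204 CPM. GW2580 2 and 3 lay above Vehicle 1 to 4, and GW2580 1, 4 and 5 lay below all vehicle libraries. The log2 fold change was -0.34 ± 0.43 (unadjusted p = 0.449, adjusted p = 0.729, exact permutation p = 0.476), and 0.06 ± 0.39 without Vehicle 5 (adjusted p = 0.931).

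**Figure D2:**
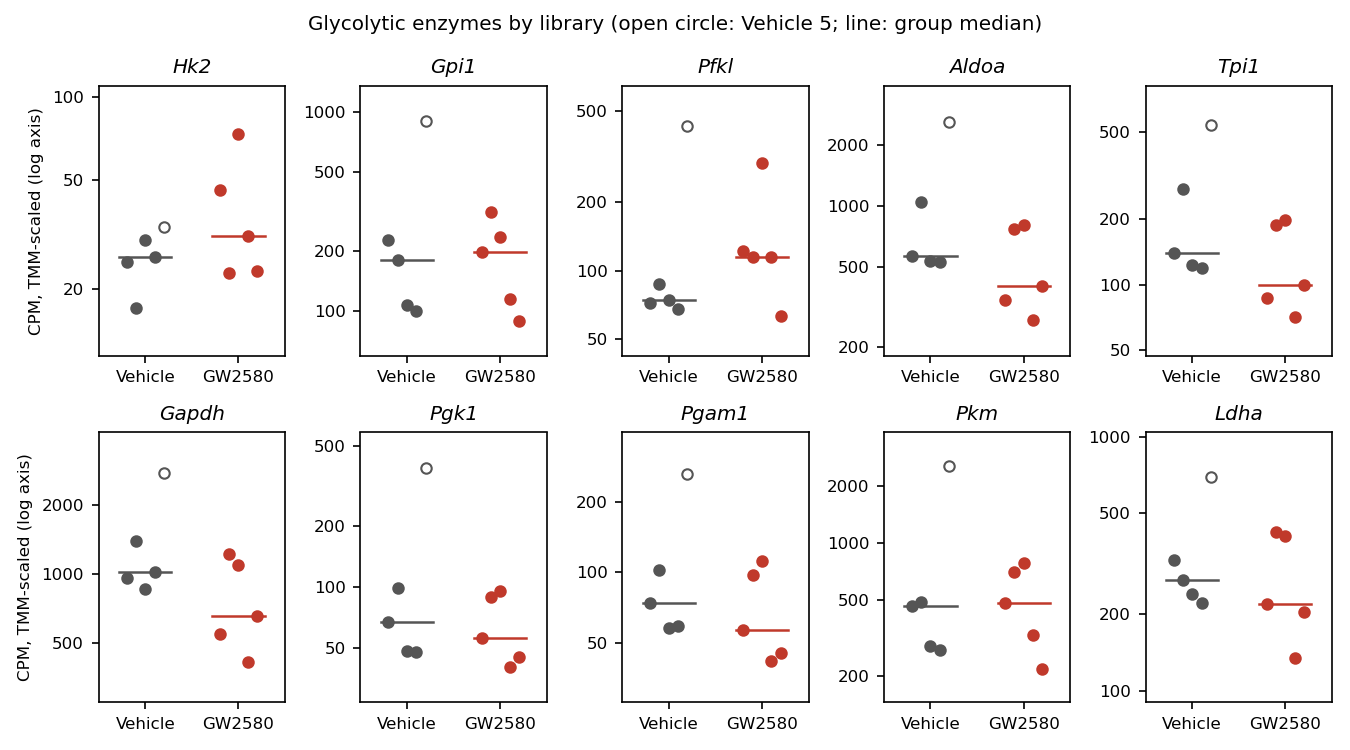
TMM-scaled CPM (log y axis) of the 10 enzyme genes in each of 5 vehicle (grey) and 5 GW2580 (red) libraries, 1 panel per gene, with a line at the group median and Vehicle 5 as an open circle. Vehicle 5 is the highest point in 9 of the 10 panels, and in none do the groups separate.

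Libraries that were high or low for one enzyme gene were mostly so for the others. Averaged over the 10 genes, log2 CPM in Vehicle 5 was 1.75 above the mean of all libraries, and the other 9 libraries lay between -0.76 and 0.59. GW2580 3 (0.59) and GW2580 2 (0.29) came next, and GW2580 4 (-0.76) and GW2580 5 (-0.73) were lowest. GW2580 4 was the lowest library for 6 of the 10 genes and GW2580 5 for 3. Vehicle 1 to 4 lay between -0.46 and 0.16, inside the span of the GW2580 libraries. The summed level of the 10 genes was 2926 ± 729.5 CPM in Vehicle 1 to 4 (SD, n = 4), 11148 CPM in Vehicle 5 and 2722 ± 1205 CPM with GW2580 (SD, n = 5).

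**Figure D3:**
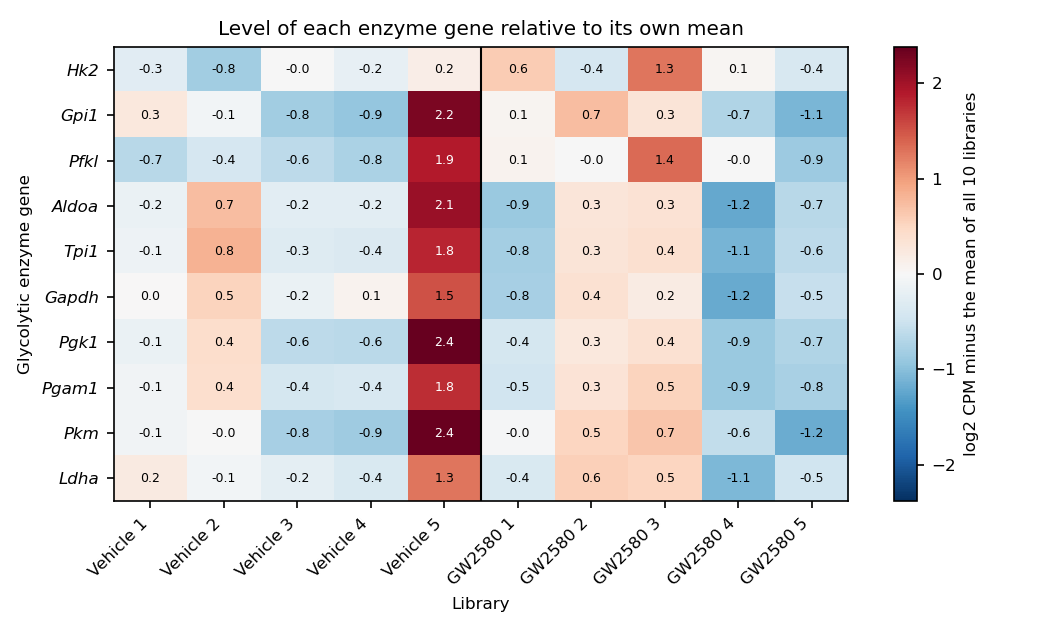
Log2 CPM of each enzyme gene (rows) in each library (columns, vehicle left of the line) minus its mean over the 10 libraries. Vehicle 5 is 2.35 above the mean for Pkm and 0.15 for Hk2, and GW2580 4 is lowest for Gapdh at -1.20.

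Other measures of the libraries also varied. In Vehicle 5, where the enzyme genes were highest, the choroid plexus, erythroid and astrocyte markers were highest and the microglia markers lowest, as given above. In GW2580 4, the lowest library for 6 genes, 24.3% of counting records were assigned to a gene and 60.1% lay on no exon, against 25.9 to 43.3% and 38.4 to 56.1% in the other libraries. Vehicle 5 and GW2580 3 had the highest assigned shares, 43.3 and 42.6%. The monocyte and granulocyte markers, 409 CPM in Vehicle 5 and up to 23667 CPM in Vehicle 1, were lowest in the library where the enzyme genes were highest. In GW2580 4 these markers were at 666 CPM, and the microglia markers there, at 14161 CPM, were lower than in every library but Vehicle 5. In GW2580 3, next after Vehicle 5 in enzyme levels, monocyte and granulocyte markers were at 497 CPM and microglia markers were highest, at 46192 CPM. Genes that respond to tissue dissociation, such as Fos and Jun, summed to 24154 to 34793 CPM with vehicle and 22232 to 72462 CPM with GW2580. The 2 heat shock genes of that list were at 0 in all libraries. Fragments that aligned to more than 1 place were not counted, so these zeros do not show that the genes were silent. The lowest of the dissociation sums was that of GW2580 4, the next that of Vehicle 5, and the highest that of GW2580 3. Neuron markers were highest in Vehicle 2 (604 CPM, elsewhere at most 201), and endothelial and mural markers lay between 70.1 and 179 CPM. The part of each of these in the levels of the enzyme genes was not tested.

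Several steps can be carried by more than one gene, and the share of each isozyme within its step, taken from counts per kb, does not depend on the scaling between libraries. For 7 steps the share of the leading or listed gene was compared between groups, with p-values adjusted over these 7. Lactate dehydrogenase was the one step whose share had an unadjusted p under 0.05. Ldha made up 8.46, 3.45, 5.52, 4.18 and 8.36% in Vehicle 1 to 5 and 12.1, 9.74, 9.70, 10.6 and 6.40% in GW2580 1 to 5. In 4 of 5 GW2580 libraries its share was above all vehicle libraries, and GW2580 5 lay within them. The means were 5.99 ± 2.33% with vehicle and 9.70 ± 2.08% with GW2580 (SD, n = 5 mice each; exact permutation p = 0.0397, adjusted 0.278), a difference that failed the adjustment. Ldhb, which encodes the B subunit, held nearly all of the rest. Ldhb itself was called lower with GW2580, with 860.4, 1862, 1008, 1239.9 and 1854 CPM in Vehicle 1 to 5 and 389, 949.9, 926, 278 and 726 CPM in GW2580 1 to 5 (log2 fold change -1.06 ± 0.44, unadjusted p = 0.0308, adjusted p = 0.303). Without Vehicle 5 its log2 fold change was -0.93 ± 0.46 (unadjusted p = 0.0635, adjusted p = 0.245), no longer a call. It was called in 6 of the 10 fits that left out 1 library, not without Vehicle 2, Vehicle 5, GW2580 1 or GW2580 4. Ldhb was lowest, and the share of Ldha highest, in GW2580 4 and GW2580 1. These libraries had the lowest shares of records assigned to a gene (24.3 and 25.9%), whose part in the Ldha share and the Ldhb call was not tested. In plain counts, where the long annotated exons of Ldha (5342 bases against 1304 for Ldhb) do not lower its share, Ldha made up 20.4 ± 6.76% and 30.3 ± 5.22% (exact permutation p = 0.0476).

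Among the hexokinases, Hk3 and not Hk2 was the main gene outside Vehicle 5. The share of Hk2 was 10.1 ± 4.30% with vehicle and 8.77 ± 2.39% with GW2580 (SD, n = 5 mice each; exact permutation p = 0.579, adjusted 0.778). Hk3, a hexokinase of myeloid cells, held 49.0 to 67.7% in Vehicle 1 to 4 and 60.6 to 76.3% with GW2580, against 24.9% in Vehicle 5. There Hk1, the widely expressed hexokinase, held 69.0%, and 12.4 to 28.2% in the other 9 libraries. Hk3 was called higher with GW2580. It had 71.7, 47.1, 60.7, 43.3 and 86.4 CPM in Vehicle 1 to 5 and 157, 133, 249, 107 and 51.0 CPM in GW2580 1 to 5. The first 4 of these GW2580 libraries lay above all vehicle libraries and GW2580 5 within them (log2 fold change 1.17 ± 0.40, unadjusted p = 0.0114, adjusted p = 0.28, exact permutation p = 0.0397). Without Vehicle 5 it was 1.32 ± 0.41 (unadjusted p = 0.00585, adjusted p = 0.163), and without GW2580 3 it was 0.86, under the fold threshold, the one of 10 such fits in which it was not called.

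At the other steps no share had an unadjusted p under 0.05. Pfkl made up 68.5 ± 14.7% with vehicle and 78.1 ± 8.32% with GW2580 (SD, n = 5 mice each; exact permutation p = 0.262, adjusted 0.736) of the phosphofructokinase genes. The long annotated exons of Pfkp (11760 bases against 4076 for Pfkl) raise the share of Pfkl on this scale. In plain counts Pfkl made up 57.9 ± 14.7% with vehicle and 68.1 ± 9.45% with GW2580 (exact permutation p = 0.238). The lowest Pfkl shares were in Vehicle 5 (49.5%), Vehicle 2 (56.0%) and GW2580 4 (65.6%). Aldoa made up 81.1 ± 27.2% with vehicle and 85.6 ± 19.4% with GW2580 (SD, n = 5 mice each; exact permutation p = 0.667, adjusted 0.778) of the aldolases. It held 33.1% in Vehicle 2 and 50.9% in GW2580 4, where Aldoc, the aldolase of astrocytes and neurons, held 66.9 and 48.7%, and at least 85.7% in the other 8 libraries. Pgam1 made up 94.8 ± 3.09% with vehicle and 92.6 ± 4.66% with GW2580 (SD, n = 5 mice each; exact permutation p = 0.421, adjusted 0.736) of the mutase genes and Pkm 99.4 ± 0.395% with vehicle and 99.3 ± 0.623% with GW2580 (SD, n = 5 mice each; exact permutation p = 0.865, adjusted 0.865) of the pyruvate kinase genes. Eno1, the leading enolase, made up 95.4 ± 1.99% with vehicle and 96.7 ± 2.99% with GW2580 (SD, n = 5 mice each; exact permutation p = 0.413, adjusted 0.736). The lowest shares of Pgam1, Pkm and Eno1 were all in GW2580 4.

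**Figure D4:**
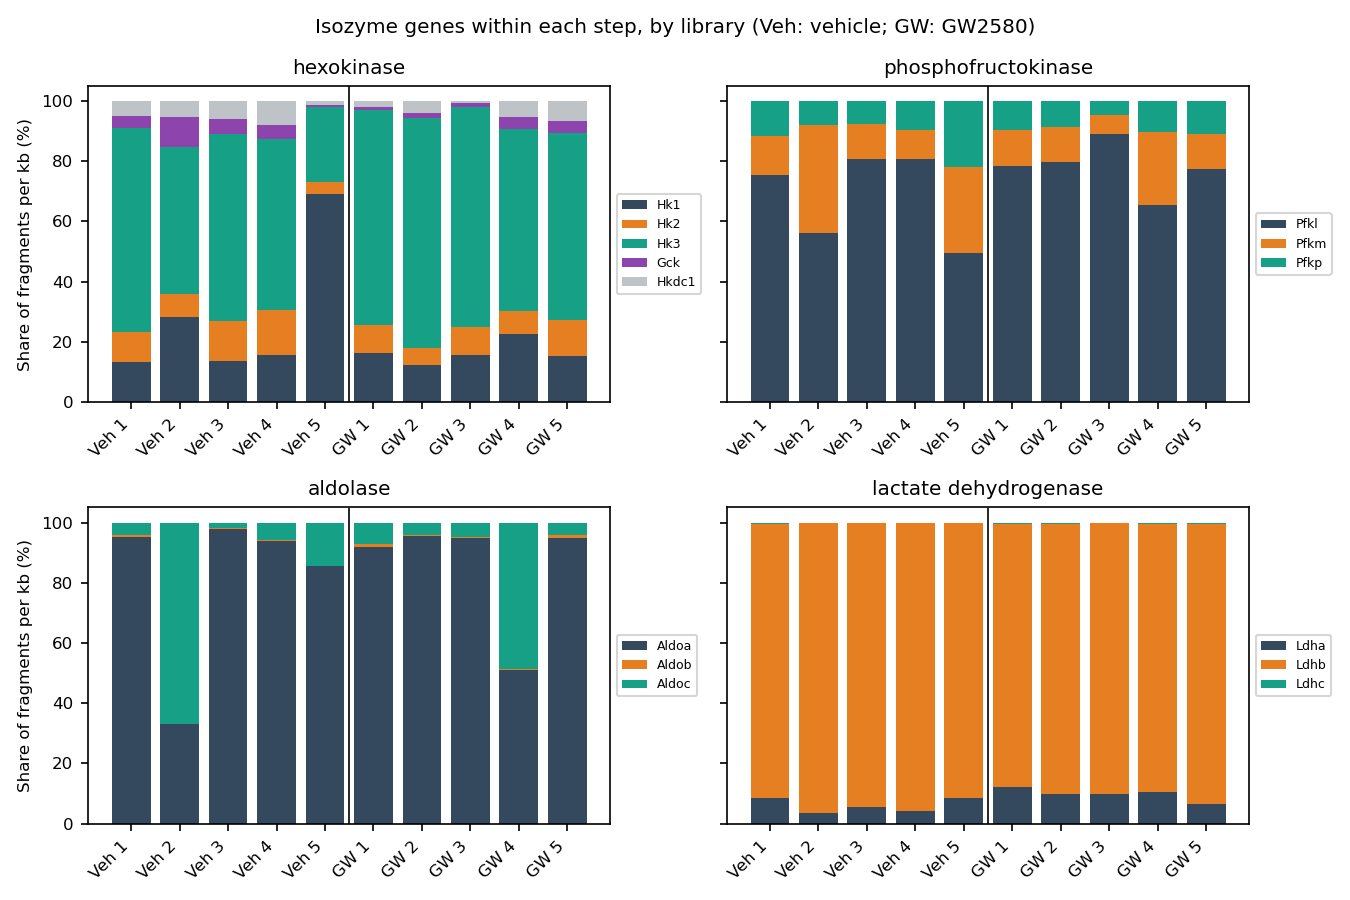
Stacked shares (y axis, percent of counts per kb within the step) of the isozyme genes of 4 steps in each library. Hk1 fills 69.0% of the hexokinase bar in Vehicle 5, Aldoc 66.9% of the aldolase bar in Vehicle 2, and Ldha 3.45 to 12.1% of the lactate dehydrogenase bars.

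Around the 10 enzymes, the remaining isozyme genes of the pathway were mixed. Of 20 listed, 19 were tested, 5 were called lower and 1, Hk3, higher, with a median log2 fold change of -0.38 over the list. This count, and those of the lists that follow with all libraries, stand beside the 6.70% of all genes called lower and 4.01% called higher. Counts without Vehicle 5 stand beside 6.74% of all genes called lower and 6.18% called higher in that fit. The 5 called lower were Eno1b, Bpgm, Eno2, Ldhb and Aldoc. Without Vehicle 5, 2 of the list were called lower, Eno1b and Aldoc, and 2 higher, Hk3 and Adpgk. Aldoc had 2509 CPM in Vehicle 2 and 11.03 to 519 elsewhere, and its log2 fold change went from -2.79 ± 1.28 (unadjusted p = 0.0463, adjusted p = 0.334) to -0.73 ± 1.05 (unadjusted p = 0.502) without Vehicle 2. Without Vehicle 2 and Vehicle 5 together its log2 fold change was 1.76 (unadjusted p = 0.0451), a call in the other direction. Bpgm, which makes the 2,3-bisphosphoglycerate of red cells, had 183 CPM in Vehicle 5 and 6.78 to 53.5 elsewhere, and its log2 fold change went from -2.09 ± 0.79 (unadjusted p = 0.0191, adjusted p = 0.28) to -0.70 ± 0.52 (unadjusted p = 0.196, adjusted p = 0.412) without Vehicle 5. Eno2, the neuronal enolase, went from -2.07 ± 0.85 (unadjusted p = 0.028, adjusted p = 0.298) to -0.84 ± 0.64 (unadjusted p = 0.211, adjusted p = 0.428) and was called in 4 of the 10 fits that left out 1 library. Eno1b was called in 10 of the 10 fits that left out 1 library, with -1.41 (unadjusted p = 0.0126, adjusted p = 0.167) without Vehicle 5, but it is a near copy of Eno1 whose reads the counting could split, at a level of 0.445 to 14.7 CPM. Eno1 itself, the enolase expressed in most cells, was not called (-0.93 ± 0.53, adjusted p = 0.414), and like 9 of the 10 enzymes it was highest in Vehicle 5, with 1883 CPM against 238 to 646.

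Listed genes of the Slc2a family of sugar transporters and the Slc16a family of lactate transporters lay on the other side of 0. All 8 of these transporter genes tested, of 9 listed, had log2 fold changes above 0, with a median of 0.48, and 0 were called. Without Vehicle 5 all 8 were above 0 with a median of 0.66 and 1 was called, the lactate transporter Slc16a1 (1.19 ± 0.35, unadjusted p = 0.00435, adjusted p = 0.163, and 0.23 ± 0.55, adjusted p = 0.862, with all libraries). All 8 were also above 0 under each of the 3 other scalings. Those of highest level per kb were Slc2a8, with 0.38 ± 0.42 (adjusted p = 0.682), and Slc2a1, with 0.42 ± 0.46 (adjusted p = 0.675). Of 16 regulators of glycolysis, 1 was called lower, Epas1, which encodes HIF-2 alpha (-1.55 ± 0.66, unadjusted p = 0.0328, adjusted p = 0.305, and -0.89 ± 0.56, unadjusted p = 0.134, adjusted p = 0.341, without Vehicle 5), and it was called in 4 of the 10 fits that left out 1 library. Without Vehicle 5, 12 of the 16 were above 0 (median 0.52) and 1 was called higher, Arnt (1.07 ± 0.36, unadjusted p = 0.00996, adjusted p = 0.163). In that fit 6.18% of all genes were called higher. Pfkfb3, whose product makes the activator of phosphofructokinase, was at 0.17 ± 0.32 (adjusted p = 0.823) and Myc at 0.56 ± 0.38 (adjusted p = 0.491). Of 12 other hypoxia-responsive genes, 1 was called lower, P4ha2 (-1.66 ± 0.61, unadjusted p = 0.0165, adjusted p = 0.28, and -0.50 ± 0.35, unadjusted p = 0.173, adjusted p = 0.386, without Vehicle 5). Without Vehicle 5, 1 of the 12 was called higher, Kdm3a, and 0 lower. P4ha1, another prolyl hydroxylase of collagen, was at 0.84 ± 0.37 (adjusted p = 0.316) and the mitophagy gene Bnip3 at -0.59 ± 0.34 (adjusted p = 0.418), neither past both thresholds.

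Past pyruvate, both genes of the mitochondrial pyruvate carrier were called lower with GW2580. Mpc1 and Mpc2 encode the subunits of the carrier that brings pyruvate into mitochondria. Mpc1 had 72.7, 162, 85.5, 97.3 and 77.9 CPM in Vehicle 1 to 5 and 25.3, 45.2, 46.3, 15.5 and 49.2 CPM in GW2580 1 to 5. Every GW2580 library lay below every vehicle library. The share of all genes whose groups separate in this way was not counted. The 6.70% of genes called lower rest on other thresholds and do not stand in for it. The log2 fold change was -1.45 ± 0.38 (unadjusted p = 0.00204, adjusted p = 0.28, exact permutation p = 0.00794, the smallest that 5 against 5 can give). Mpc2 had 110.0, 147, 87.7, 92.3 and 60.7 CPM in Vehicle 1 to 5 and 21.5, 58.2, 31.9, 13.2 and 87.1 in GW2580 1 to 5. GW2580 5 overlapped the vehicle libraries and the other 4 lay below all of them (-1.23 ± 0.47, unadjusted p = 0.0206, adjusted p = 0.281). These were 2 of 13 genes in the list of pyruvate dehydrogenase, its kinases and the carrier, whose median was -0.42. Both stayed called without Vehicle 5, at -1.52 ± 0.38 (unadjusted p = 0.00115, adjusted p = 0.163) and -1.37 ± 0.46 (unadjusted p = 0.00974, adjusted p = 0.163). Mpc1 was called in 10 of the 10 fits that left out 1 library, and Mpc2 in 7, not without Vehicle 2, GW2580 1 or GW2580 4. Both genes were lowest in GW2580 4 and GW2580 1, the libraries with the lowest shares of records assigned to a gene (24.3 and 25.9%) and the highest shares on no exon (60.1 and 56.1%). The part of these shares in the result was not tested, beyond the fits that left out either library alone. Pdhb, a subunit of pyruvate dehydrogenase, was at -0.35 ± 0.34 (adjusted p = 0.634).

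All 16 genes of the tricarboxylic acid cycle had log2 fold changes below 0 (median -0.72) and 2 were called lower, Sdhb and Suclg1, beside 6.70% of all genes. With library size alone and with upper quartiles 12 of the 16 were below 0. Against the median gene, which these scalings moved up, 15 of the 16 were lower in the main fit, 16 with library size alone and 13 with upper quartiles. Without Vehicle 5, 9 of 16 were below 0 (median -0.13), Sdhb stayed called lower and Ogdh was called higher. Sdhb, the iron-sulphur subunit of succinate dehydrogenase, had 215, 409, 247, 276 and 191 CPM in Vehicle 1 to 5 and 66.6, 179, 151, 44.0 and 135 in GW2580 1 to 5, with no overlap (-1.22 ± 0.42, unadjusted p = 0.0111, adjusted p = 0.28, exact permutation p = 0.00794), and was called in 10 of the 10 fits that left out 1 library. Suclg1 was at -1.01 ± 0.41 (unadjusted p = 0.0272, adjusted p = 0.296) with all libraries and -0.73 ± 0.38 (unadjusted p = 0.07, adjusted p = 0.255) without Vehicle 5 and was called in 6 of the 10 fits that left out 1 library, and Mdh2, the most abundant per kb, was at -0.86 ± 0.42 (adjusted p = 0.356). In the pentose phosphate pathway 1 of 8 genes was called lower, Pgls, which hydrolyses 6-phosphogluconolactone, with 125, 137, 136, 153 and 130.3 CPM in Vehicle 1 to 5 and 29.0, 100.03, 81.0, 24.0 and 85.9 in GW2580 1 to 5, again with no overlap (-1.09 ± 0.41, unadjusted p = 0.0177, adjusted p = 0.28, exact permutation p = 0.00794). Without GW2580 1 or without GW2580 4 its fold change was under 2. When Vehicle 5 was left out, Pgls stayed called lower and H6pd of the same list was called higher (1.01 ± 0.36, unadjusted p = 0.0126, adjusted p = 0.167). Sdhb and Pgls were also lowest in GW2580 4 and GW2580 1, the libraries with the lowest assigned shares given above, whose part in these values was not tested. For both, as for Mpc1, the share of all genes with no overlap between the groups was not counted. Taldo1, the transaldolase gene, was at -0.37 ± 0.41 (adjusted p = 0.683). Of 6 gluconeogenesis genes 1 was called lower, the pyruvate carboxylase gene Pcx, which had 274 CPM in Vehicle 5 and at most 21.3 elsewhere. Its log2 fold change of -2.42 ± 0.96 (unadjusted p = 0.0237, adjusted p = 0.287) became 0.10 ± 0.41 (unadjusted p = 0.818, adjusted p = 0.898) without that library. G6pc3 and Pck2, the other genes named from this list, were at -0.30 ± 0.36 (adjusted p = 0.71) and 0.37 ± 0.41 (adjusted p = 0.679).

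**Figure D5:**
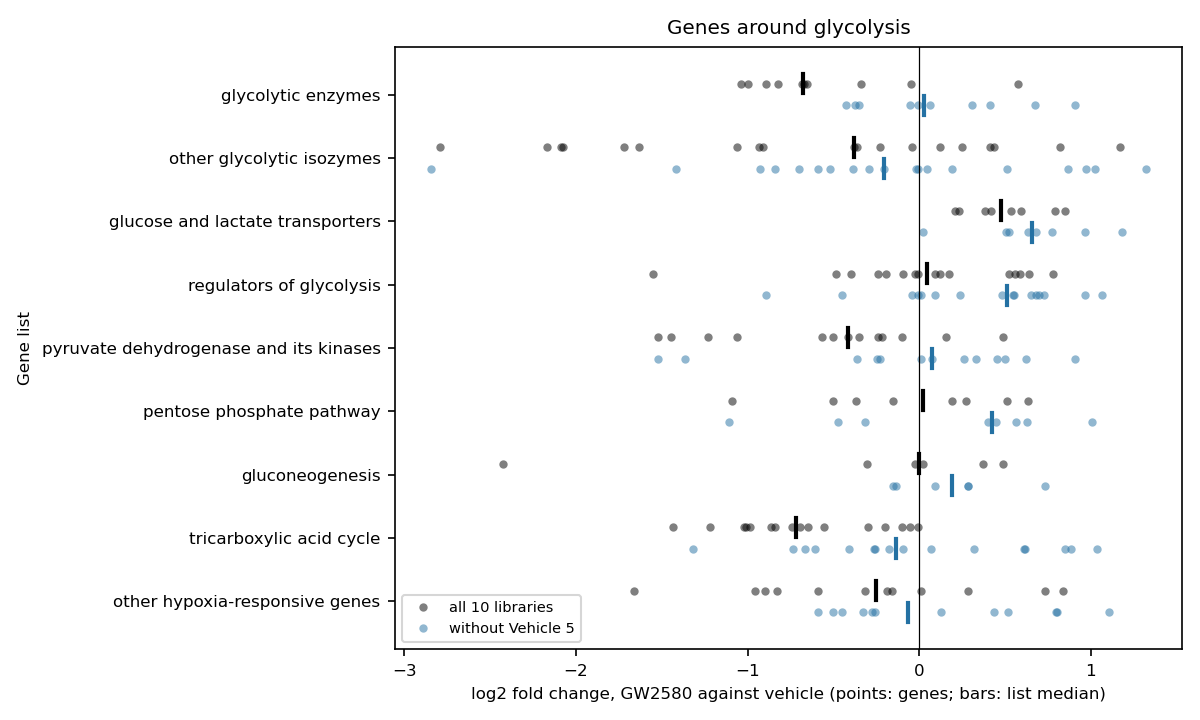
Log2 fold changes, GW2580 against vehicle (x axis), of single genes (points) in the enzyme list and 8 lists around it, with the list median as a bar, for all 10 libraries (black) and without Vehicle 5 (blue). The median of the 10 enzymes moves from -0.68 to 0.03 and that of the transporters from 0.48 to 0.66.

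The response of the enzyme genes was also compared between the sexes. None of the 10 had a treatment by sex interaction with an unadjusted p under 0.05 in edgeR's quasi-likelihood test, and the count was also 0 with DESeq2 size factors and with library size alone. The difference of the log2 fold changes, male minus female, was above 0 for all 10 genes, from 0.20 ± 0.80 for Hk2 to 1.67 ± 1.26 for Gpi1 (unadjusted p = 0.208, the smallest of the 10). Vehicle 5 is 1 of the 3 female vehicle mice. With 2 male and 3 female mice per group, the standard errors of these differences were 0.80 to 1.34 on the log2 scale.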

How the data were processed

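The authors aligned read pairs with STAR to the mouse genome and counted fragments on RefSeq exons. The header of the deposited counts names featureCounts 1.6.3. These whole-number counts per gene, not normalized, with the exon length of each gene in bases and the numbers of unassigned records, were deposited for 10 libraries, 1 per mouse. The labels gave group, sex and replicate number. Symbols, coordinates (GRCm38.p6) and start windows come from RefSeq tables, which name 46029 of the 46152 genes.

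Genes over 1 CPM in at least 3 libraries were kept, scaled by TMM and tested with edgeR 4.0.16 in R 4.3.3 (quasi-likelihood, treatment as the only term), with p-values adjusted by Benjamini and Hochberg over all 28419 genes. Standard errors are the log2 fold change divided by the square root of F. Single values were also tested by two-sided exact permutation over the 252 choices of 5 of 10 libraries, on log2 CPM with a prior count of 2. The p-values measure the spread between these libraries. Alternatives used DESeq2 1.42.0, limma 3.58.1, other scalings and filters, sex as a term, a loess length correction (span 0.5), and leaving out libraries. The tests were first tried on simulated counts. Enzyme genes, lists and tests were chosen with earlier results of these data known. From each other list, genes called (at most 5) and the 2 of highest level per kb are named, and marker lists are given as sums. Hk1, Aldoc, Slc16a1, Ogdh, Ttr, Arnt, Kdm3a, H6pd and Adpgk were named after their values were seen, and the fit without Vehicle 2, Vehicle 5 and GW2580 4 was added then. Library totals are fragments assigned to genes, and unassigned classes stayed out of every test. Figures were drawn in Python 3.11.15 with matplotlib 3.10.9.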

Additional observations from a re-analysis of the deposited data

Results flagged for a closer look

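In each group of 5 libraries, the highest and the lowest value were tested for standing apart by Dixon's test, in which the gap to the next library over the whole range must exceed 0.71. For normally distributed values chance alone flags about 1 in 20 groups. CPM and percentages were tested without transformation, so that rate need not hold here. Over the levels of the 10 enzyme genes and the 7 isozyme shares, 12 of 34 groups were flagged. Vehicle 5 was the high sample of the vehicle group for 8 genes, with 901 CPM for Gpi1, 429 for Pfkl, 2622 for Aldoa, 2751 for Gapdh, 387 for Pgk1, 262 for Pgam1, 2531 for Pkm and 693 for Ldha. The widest of these gaps was that of Pfkl, with a ratio of 0.947, and the narrowest that of Gapdh, with 0.719. Tpi1 was also highest in Vehicle 5 but its gap did not pass, since Vehicle 2 had 272 CPM. Within the GW2580 group, Pfkl stood apart in GW2580 3, with 295 CPM.

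The share of Aldoa among the aldolases stood apart at 33.1% in Vehicle 2 and at 50.9% in GW2580 4. The share of Eno1 among the enolases stood apart at 91.5% in GW2580 4. The same mice underlie every value, so these flags are not independent of each other. None of the 10 genes had a treatment by sex interaction that passed its threshold.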

How the results depend on the processing

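The count of enzyme genes called was 0 under every alternative but DESeq2 and the fit without GW2580 3, each of which called 1, Aldoa. Leaving out 1 library at a time gave 0 to 1 enzyme genes called, 5 to 9 below 0, and 1684 (without GW2580 1) to 4848 (without GW2580 5) genes called in the whole table. The table had 4802 calls with no filter, 6057 without Vehicle 5 and GW2580 5, 1719 without Vehicle 2, Vehicle 5 and GW2580 4, and 0 at an adjusted p under 0.05. The number of enzyme genes below 0 was 2 without Vehicle 2 and Vehicle 5, 5 without Vehicle 5 and GW2580 5, and 1 without Vehicle 2, Vehicle 5 and GW2580 4. Single log2 fold changes turned above 0 without Vehicle 5 (0.31 for Gpi1, 0.91 for Pfkl, 0.41 for Pkm, 0.063 for Ldha), without Vehicle 2 and Vehicle 5 (0.38 for Gpi1, 0.97 for Pfkl, 0.00037 for Tpi1, 0.25 for Pgk1, 0.14 for Pgam1, 0.54 for Pkm, 0.063 for Ldha), without Vehicle 5 and GW2580 5 (0.39 for Gpi1, 0.98 for Pfkl, 0.50 for Pkm, 0.056 for Ldha), and without Vehicle 2, Vehicle 5 and GW2580 4 (0.45 for Gpi1, 0.96 for Pfkl, 0.011 for Aldoa, 0.085 for Tpi1, 0.31 for Pgk1, 0.21 for Pgam1, 0.59 for Pkm, 0.17 for Ldha). Pfkl, near 0 to begin with, also turned with library size alone (0.14), upper quartiles (0.20), limma-voom (0.23), sex as a term (0.060), the replicate block (0.36) and the trend with gene length removed (0.054). It turned as well when GW2580 1 (0.018), GW2580 2 (0.029), GW2580 4 (0.033) or GW2580 5 (0.095) was left out alone. Pfkl ranged from -0.50 to 0.91 over fits without 1 library. Over the same fits Gpi1 ranged from -0.92 to 0.31, Pkm from -0.90 to 0.41 and Ldha from -0.53 to 0.063. The cause of these turns was not tested.

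No pairing of the mice by the replicate numbers of the labels was detected. Same-numbered deviations from the group means correlated at 0.080, 0.13, -0.055, -0.069 and -0.39, and no vehicle library correlated best with its own number. With the number as a block, 2554 genes and none of the enzymes were called. Isozyme shares moved more. Without 1 library, the difference in percentage points was 3.07 to 4.53 for Ldha, -7.56 to 13.13 for Aldoa, -0.20 to 0.16 for Pkm and 0.78 to 2.63 for Eno1. Ldha kept an unadjusted p under 0.05 in 3 of these 10 fits, and Eno1 gained one without GW2580 4. Without Vehicle 2 and Vehicle 5, the differences were -0.89 for Pfkl, -10.0 for Aldoa, 0.034 for Pkm, -0.11 for Eno1 and 3.65 for Ldha (exact permutation p = 0.0714). With 5 mice a group and library-to-library SDs of 23.5 to 119% of the mean, only large differences could be called. Hk2, the least abundant enzyme gene, rests on 243 to 1321 counts per library.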
